A study of Mus musculus with 6 samples.

Results

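The genes described are 42 genes of DNA replication and of the G1-S transition of the cell cycle, of 19938 genes that the array annotation names, read from whole-brain RNA of male mice of the inbred strain C57BL/6J at postnatal day 7. They were chosen by name, each through the probesets that the annotation pairs with that gene alone, and the probeset with the highest mean over the 6 arrays stood for a gene. All 42 were found, 41 of them on 1 probeset, and Pcna had 1 further probeset. The ethanol group had 2 arrays, numbered 2 and 4 in the labels, from pups injected under the skin with 20% ethanol in saline, as 2 doses of 2.5 g/kg given 2 h apart. The saline group had 4 arrays, numbered 1, 3, 5 and 6, from pups given saline alone. Each array held RNA pooled from 3 males of different litters, 18 mice in all, collected 4 h after the first injection. Treated pups were matched with saline littermates, and all pups were without their mother during the injections.

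A chromosome is copied once per cell cycle. In G1, D-type cyclins with Cdk4 and E-type cyclins with Cdk2 phosphorylate the retinoblastoma protein and so release E2F transcription factors, which switch on replication genes. Meanwhile the origin recognition complex, Cdc6 and Cdt1 load the MCM helicase onto DNA, and Cdc45 and the GINS complex turn it on in S phase. In the mouse brain of the first postnatal week, dividing cells include granule cell precursors of the cerebellum, oligodendrocyte precursors and progenitors near the ventricles, while most neurons have left the cycle. A whole-brain sample mixes all of these, so fewer dividing cells and less RNA per dividing cell cannot be told apart.

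Levels are log2 intensities as the authors deposited them, and a change is the ethanol mean minus the saline mean on that log2 scale, with the standard error (SE) of a limma fit over the 6 arrays. The dimmest 25% of genes were left out, and 14953 were tested. Of the replication genes 40 were tested and 2 were left out as dim, namely Orc1 and Cdc6. Levels under 6.19, the 95th percentile of olfactory and vomeronasal receptor genes, are called near background, and Fen1 and E2f2 were tested but lay there. The level of one probeset cannot be set against that of another as an amount of RNA, so comparisons are made within a gene. Saline array 3 stood apart from the other arrays, with a score of 13.47 on principal component 1 (40.9% of the variance), against -6.61 and -7.49 for the ethanol arrays and -2.13 to 2.95 for the other saline arrays. Tested genes had a median level of 8.34 and 8.35 on the ethanol arrays and of 8.29 to 8.38 on the saline arrays. Neuronal markers averaged 12.28 and 12.29 on the ethanol arrays and 12.24 to 12.36 on the saline arrays, and astrocyte markers 10.50 and 10.58 on the ethanol arrays and 10.53 to 10.59 on the saline arrays.

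The comparison asked whether replication and G1-S transcripts differ 4 h after the start of ethanol exposure. None of the 40 tested genes passed the limma test at an adjusted p of 0.05, while 12 of all tested genes did (0.0803%). At an unadjusted p under 0.05 there were 7, all with a change below 0: Ccnd1, Rrm2, Gins3, Mcm2, Mcm4, Pcna and Cdc45. That is 17.5% of the 40, where 8.44% of all tested genes had such a p with a change below 0, and 0 with a change above 0, where all tested genes had 3.85%. In both directions together the share of all tested genes was 12.3%. The changes were small, from -0.30 for Ccnd1 to 0.14 for Rfc5, with a median of -0.07, against a median of -0.02 over all tested genes. Below 0 lay 32 of the 40, or 80.0%, against 58.6% of all tested genes.

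For 10 of the 40 genes both ethanol arrays lay below all 4 saline arrays (against 14.9% of all tested genes), and for Rfc5 both lay above them, where all tested genes had 7.68%. The other 29 overlapped between the groups. Among all tested genes, 22.6% did not overlap in one direction or the other. Ethanol array 4 was the lowest of the 6 arrays for 15 of the 40 genes (against 21.4% of all tested genes) and ethanol array 2 for 10 (against 21.0%). Saline arrays 1, 3, 5 and 6 were lowest for 4, 7, 1 and 3 genes, against 12.9%, 36.9%, 2.7% and 5.2% of all tested genes. A fit without ethanol array 4 or ethanol array 2 keeps 1 ethanol array, takes its spread from the saline arrays alone and assumes that the lone array varies like them. Without ethanol array 4, Ccnd1 alone had an unadjusted p under 0.05 in limma, where 5.29% of all tested genes had such a p with a change below 0. Without ethanol array 2 the changes of the 7 genes named above ran from -0.32 for Pcna to -0.19 for Mcm2. Without saline array 3 there were 8 genes below 0 at an unadjusted p under 0.05 in limma (against 10.5% of all tested genes) and 0 above. The median change was then -0.08 against -0.03 for all tested genes. With each array centred on its median, 4 genes were below 0 at that p (against 5.05% of all tested genes) and 1, Rfc5, above, and the median was -0.04 against 0.01 for all tested genes.

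**Figure D1:**
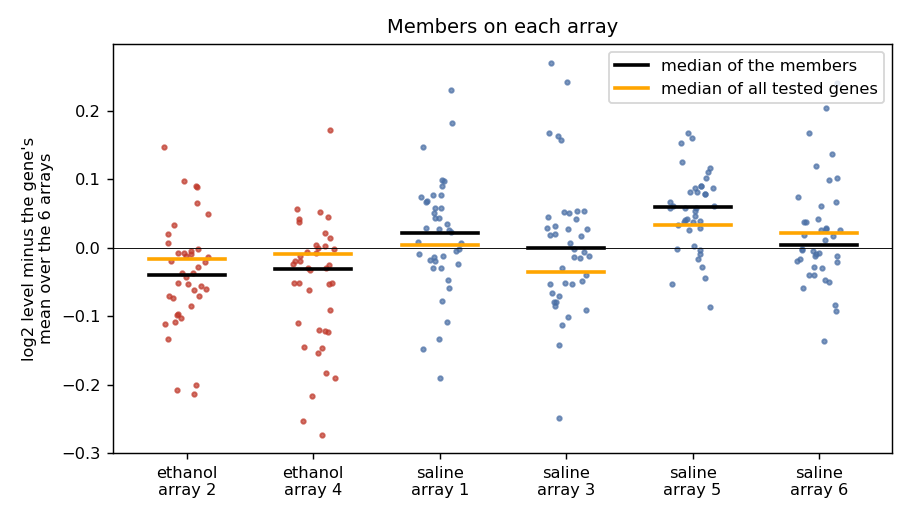
Log2 level of each of the 40 tested genes minus its own mean over the 6 arrays (vertical axis), by array (horizontal axis, ethanol left), with black bars for the median of the 40 genes and orange bars for that of all tested genes. The medians of the 40 genes are -0.040 on ethanol array 2 and -0.032 on ethanol array 4, against 0.000 to 0.059 on the saline arrays.

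Medians per array were set beside those of all tested genes. On ethanol array 2 they were -0.040 for the replication genes and -0.016 for all tested genes, and on ethanol array 4 -0.032 and -0.009. On saline array 5, the highest, they were 0.059 and 0.033, and on saline array 3 they were 0.000 and -0.035. The replication genes stood below all tested genes on both ethanol arrays and above them on saline arrays 1, 3 and 5, but below them on saline array 6 (0.004 and 0.021).

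**Figure D2:**
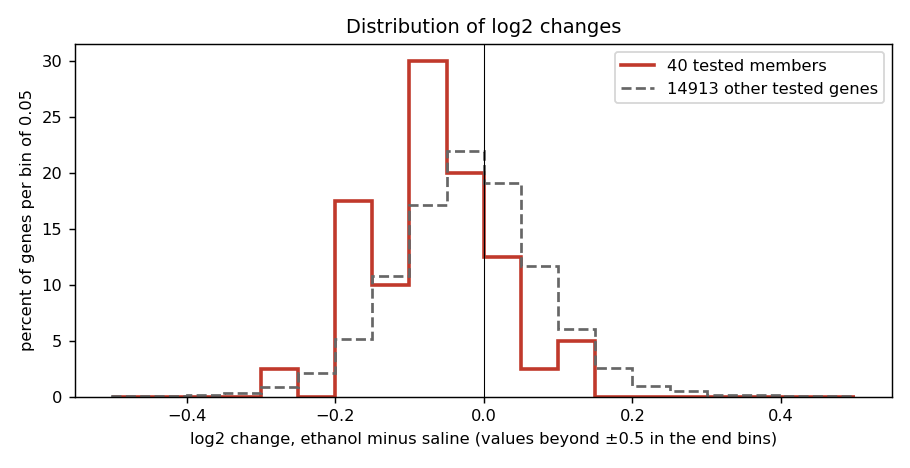
Percent of genes (vertical axis) by log2 change, ethanol minus saline, in bins of 0.05 (horizontal axis), for the 40 tested genes (solid) and the 14913 other tested genes (dashed). The replication genes lie mostly between -0.20 and 0.05, and the median is -0.07, against -0.02 for the other genes.

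Among the cyclins and kinases of G1-S, Ccnd1 had the smallest p of the 40 genes. It encodes cyclin D1, the partner of Cdk4 and Cdk6 whose synthesis answers to growth factor signals. Its level was 9.76 and 9.79 on ethanol arrays 2 and 4, against 10.05, 10.14, 10.09 and 10.01 on saline arrays 1, 3, 5 and 6. Every saline array lay above both ethanol arrays, and the gap between the groups was wider than the range within either. The means were 9.78 ± 0.02 with ethanol (SD, n = 2) and 10.07 ± 0.05 with saline (SD, n = 4), so that ethanol pools held 81.4% of the saline level. The change was -0.30 ± 0.06 (SE), with a 95% interval of -0.43 to -0.16 and a limma adjusted p of 0.0827. It stood in place 64 of all tested genes by p, and 0.635% of tested genes had a lower change. It passed with a trended, robust variance prior (limma adjusted p = 0.0401) and with the dimmest 50% of genes left out (0.0484). Over all alternatives its change ran from -0.32 to -0.27. Its adjusted p ran up to 0.422, the value without ethanol array 4, where the change was -0.31 and 1 ethanol array was left.

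Ccnd2, another D-type cyclin, read 10.83 and 10.86 on the ethanol arrays, against 10.86, 10.86, 10.98 and 10.95 on saline arrays 1, 3, 5 and 6. The ethanol arrays were the lowest 2, but by a margin smaller than the range of the saline arrays. Its change was -0.07 ± 0.06, with an interval of -0.20 to 0.07. The intervals of the D-type cyclins overlap, and their difference was not tested. Cdk4, the catalytic partner of the D-type cyclins, read 11.54 and 11.59 on the ethanol arrays, against 11.64, 11.60, 11.66 and 11.65 on saline arrays 1, 3, 5 and 6. Its groups were likewise apart by less than their own ranges, with a change of -0.07 ± 0.06. Ccne2, an E-type cyclin, read 7.88 on both ethanol arrays and 7.92 to 8.03 on the saline arrays, with a change of -0.08 ± 0.06. The other E-type cyclin, Ccne1, and their kinase Cdk2 overlapped between the groups, with changes of -0.03 ± 0.07 and -0.04 ± 0.06. All 6 genes of this group thus had changes below 0, against 58.6% of all tested genes. In a further list, the D-type cyclin Ccnd3 had -0.06 ± 0.06, and the kinase Cdk6 had a change above 0, 0.06 ± 0.07. For 4 of the 6 genes both ethanol arrays lay below all saline arrays, against 14.9% of all tested genes. The gaps were 0.00 for Ccnd2, 0.01 for Cdk4 and 0.03 for Ccne2, against 0.22 for Ccnd1.

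Of the activating E2F factors, E2f3, read in a further list, had -0.13 ± 0.07, below 0 like the cyclins. E2f1 and E2f2 had changes above 0. E2f1 read 7.29 and 7.19 on the ethanol arrays, against 7.19, 7.10, 7.24 and 7.20 on saline arrays 1, 3, 5 and 6, a change of 0.06 ± 0.06. Ethanol array 4 lay inside the saline range. E2f2, near background, had a change of 0.03 ± 0.06. Neither had an unadjusted p under 0.05, and the intervals were -0.08 to 0.19 for E2f1 and -0.09 to 0.16 for E2f2.

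**Figure D3:**
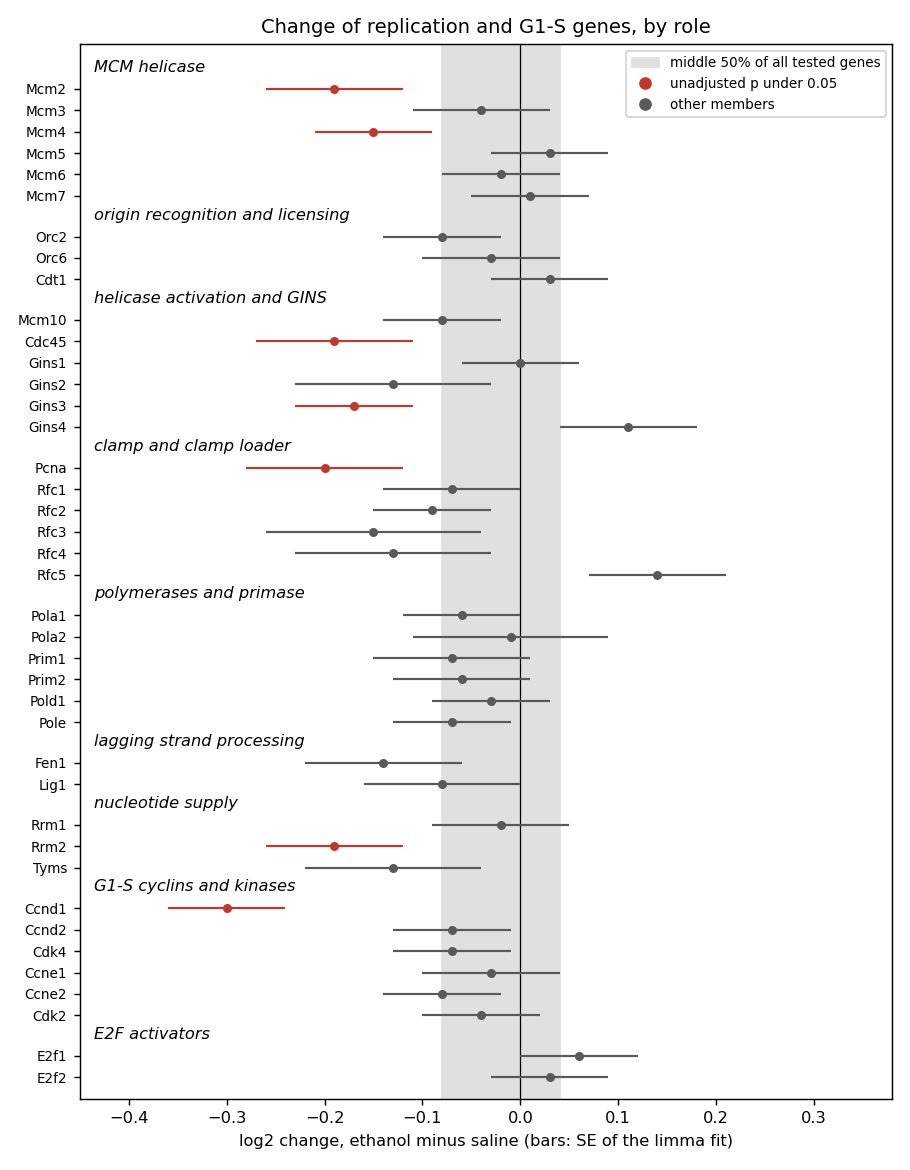
Log2 change, ethanol minus saline (horizontal axis), of the 40 tested genes in role order (vertical axis), with bars for the SE of the limma fit and grey shading for the middle 50% of all tested genes, -0.08 to 0.04. The 7 genes at an unadjusted p under 0.05 are in red, all left of 0, with Ccnd1 at -0.30, and Rfc5 lies farthest right at 0.14.

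None of the 3 tested origin licensing genes had an unadjusted p under 0.05 in limma. Orc2, a subunit of the origin recognition complex, read 9.09 and 9.01 on the ethanol arrays, against 9.17, 9.05, 9.16 and 9.13 on saline arrays 1, 3, 5 and 6, and its change was -0.08 ± 0.06. Orc6, the smallest subunit of that complex, read 9.27 on both ethanol arrays and 9.22 to 9.38 on the saline arrays, a change of -0.03 ± 0.07. Cdt1, the loading factor that geminin restrains, had 0.03 ± 0.06. All 3 overlapped between the groups. The dim members of this group were Orc1, an ATP-binding subunit of the origin complex, and Cdc6, the ATPase that loads the helicase with Cdt1. Orc1 read 4.89 and 4.84 on the ethanol arrays and 4.91 to 4.98 on the saline arrays, and Cdc6 read 5.03 and 5.43 on the ethanol arrays and 5.26 to 5.46 on the saline arrays, all within the background range. The ethanol arrays lay below all saline arrays for Orc1, and the groups overlapped for Cdc6.

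The MCM helicase is a ring of 6 related ATPases, the products of Mcm2 to Mcm7, that opens the double helix ahead of the fork. Of its 6 genes, 2 had an unadjusted p under 0.05 and no overlap between the groups. Among all tested genes, 8.44% had such a p with a change below 0. Both ethanol arrays lay below all saline arrays for 14.9% of them. Mcm2 read 7.57 and 7.58 on the ethanol arrays, against 7.85, 7.73, 7.65 and 7.84 on saline arrays 1, 3, 5 and 6. Mcm4 read 7.87 and 7.78 on the ethanol arrays, against 7.97, 7.98 and 7.96 on saline arrays 1, 3 and 5, and saline array 6 was the highest. For both genes each ethanol array lay below every saline array, with a gap between the nearest arrays of 0.07 for Mcm2 and 0.09 for Mcm4. The changes were -0.19 ± 0.07 for Mcm2 (limma adjusted p = 0.286) and -0.15 ± 0.06 for Mcm4 (0.312). With no variance prior the unadjusted p of Mcm2 was 0.0514. That of Mcm4 in limma was 0.054 with centred arrays and 0.0522 without saline array 6. Without ethanol array 4 the change was -0.20 for Mcm2 and -0.11 for Mcm4. Mcm7 read 8.38 and 8.41 on the ethanol arrays, inside the range of 8.33, 8.42, 8.39 and 8.40 on saline arrays 1, 3, 5 and 6, and its change was 0.01 ± 0.06. Mcm5, Mcm6 and Mcm3 also overlapped between the groups, with changes of 0.03 ± 0.06, -0.02 ± 0.06 and -0.04 ± 0.07. The interval was -0.34 to -0.04 for Mcm2 and -0.10 to 0.16 for Mcm5, and these overlap. The difference between subunits was not tested.

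Promoters of the MCM genes are printed, except that of Mcm4, for which no window was available. MCM genes are standard examples of E2F-regulated genes, and those printed had changes from -0.19 to 0.03. Gins3 was added as the gene at an unadjusted p under 0.05 whose window holds the motif. The sequences are RefSeq's on GRCm38.p6, from 250 bases before to 50 after the gene's start, on the gene's strand. Capitals mark matches to the E2F-type motif TTTNNCGC on either strand, and matches that overlap run together. The windows are chr6:88898731-88899030 (minus strand) for Mcm2, chr1:20820263-20820562 (minus) for Mcm3, chr8:75109259-75109558 (plus) for Mcm5, chr1:128359656-128359955 (minus) for Mcm6, chr5:138171834-138172133 (minus) for Mcm7 and chr8:95633309-95633608 (plus) for Gins3. Mcm7 has 2 windows in the table, and the one with a match is shown.
Mcm2: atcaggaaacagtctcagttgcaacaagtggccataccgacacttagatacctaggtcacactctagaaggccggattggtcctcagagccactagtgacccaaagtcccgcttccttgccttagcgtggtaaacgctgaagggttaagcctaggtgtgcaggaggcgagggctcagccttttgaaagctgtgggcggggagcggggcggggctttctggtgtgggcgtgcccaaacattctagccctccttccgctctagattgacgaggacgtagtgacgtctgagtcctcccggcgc
Mcm3: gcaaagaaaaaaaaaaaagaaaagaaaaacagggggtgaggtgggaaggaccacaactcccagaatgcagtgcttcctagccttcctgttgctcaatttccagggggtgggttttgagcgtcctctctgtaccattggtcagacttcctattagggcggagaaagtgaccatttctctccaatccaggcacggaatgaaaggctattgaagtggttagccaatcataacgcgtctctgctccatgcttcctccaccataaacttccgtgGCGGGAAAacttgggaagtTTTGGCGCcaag
Mcm5: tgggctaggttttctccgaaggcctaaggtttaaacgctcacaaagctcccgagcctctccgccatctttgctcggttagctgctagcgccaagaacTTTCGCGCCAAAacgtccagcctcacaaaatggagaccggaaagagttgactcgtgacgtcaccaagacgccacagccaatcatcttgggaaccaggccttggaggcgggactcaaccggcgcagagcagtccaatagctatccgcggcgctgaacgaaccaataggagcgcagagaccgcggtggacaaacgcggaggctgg
Mcm6: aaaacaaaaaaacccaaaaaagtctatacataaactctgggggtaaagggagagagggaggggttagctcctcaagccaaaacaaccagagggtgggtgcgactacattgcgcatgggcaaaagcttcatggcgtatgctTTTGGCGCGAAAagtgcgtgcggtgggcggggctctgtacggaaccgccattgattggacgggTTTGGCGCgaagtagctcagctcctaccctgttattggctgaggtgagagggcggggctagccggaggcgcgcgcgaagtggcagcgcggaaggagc
Mcm7: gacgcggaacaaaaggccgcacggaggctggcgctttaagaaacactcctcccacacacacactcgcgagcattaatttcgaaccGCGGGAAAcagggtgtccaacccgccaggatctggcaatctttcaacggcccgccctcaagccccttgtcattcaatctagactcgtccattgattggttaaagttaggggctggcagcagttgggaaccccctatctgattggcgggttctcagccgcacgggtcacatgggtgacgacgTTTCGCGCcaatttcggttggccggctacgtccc
Gins3: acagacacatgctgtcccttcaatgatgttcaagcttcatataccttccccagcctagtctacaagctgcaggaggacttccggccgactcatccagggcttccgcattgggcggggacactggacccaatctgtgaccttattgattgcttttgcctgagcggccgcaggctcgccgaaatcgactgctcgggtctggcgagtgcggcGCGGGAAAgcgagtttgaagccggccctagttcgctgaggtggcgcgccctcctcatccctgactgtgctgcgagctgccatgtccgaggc
Mcm6 holds 3 matches, Mcm3, Mcm5 and Mcm7 hold 2 each, Gins3 holds 1 and Mcm2 holds 0. Of the 42 genes, 32 had a window in the table, and 15 of these (46.9%) held the motif, against 5.93% of 27025 genes with a window. The CCAAT box, a 5-base element common in promoters of dividing cells, was in 20 of the 32 (62.5%) and in 41.1% of all genes with a window, counting CCAAT on either strand. Tested genes with the motif numbered 13, with a median change of -0.04 and 1 (Gins3) at an unadjusted p under 0.05. Tested genes with a window and no match numbered 17, with a median of -0.07 and 4 at that p, Mcm2, Cdc45, Pcna and Rrm2. Ccnd1 and Mcm4, also at that p, had no window and are in neither count. Of all tested genes, 8.44% had such a p with a change below 0. A match is a description of the letters and no evidence of binding, and no match says only that these letters are not in this window.

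**Figure D4:**
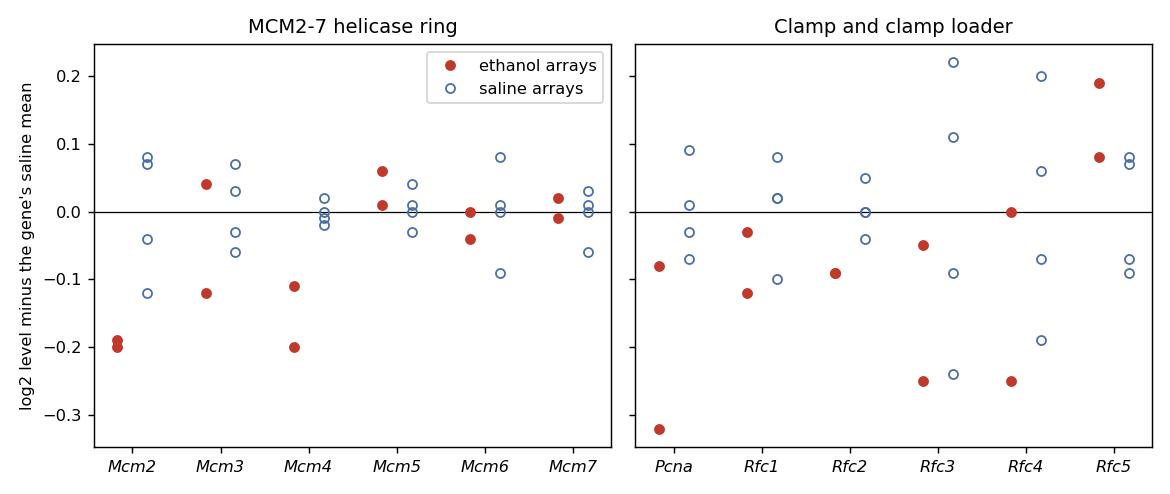
Log2 level on each array minus the gene's saline mean (vertical axis) for the MCM ring (left) and for Pcna and the clamp loader genes (right), ethanol arrays as filled red points left of open blue saline points. The ethanol points lie below all saline points for Mcm2, Mcm4, Pcna and Rfc2, above them for Rfc5, and overlap them for the other genes.

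Of the 6 helicase activation genes, 2 had an unadjusted p under 0.05, both with a change below 0, where all tested genes had 8.44%. Gins3, a subunit of the GINS complex that joins Cdc45 and MCM in the active helicase, read 6.29 and 6.23 on the ethanol arrays, against 6.41, 6.42, 6.50 and 6.40 on saline arrays 1, 3, 5 and 6. Its groups did not overlap, although all 6 values lay close above the background level, and the change was -0.17 ± 0.06 (limma adjusted p = 0.283). Cdc45 read 6.51 and 6.33 on the ethanol arrays, against 6.50, 6.71, 6.70 and 6.53 on saline arrays 1, 3, 5 and 6. Saline array 1 lay just below ethanol array 2 there, and the change was -0.19 ± 0.08 (limma adjusted p = 0.358). Cdc45 lost its unadjusted p under 0.05 without saline array 3, saline array 5 or ethanol array 4, under both other scalings, with array weights and with no variance prior, and its change without ethanol array 4 was -0.10. The other GINS genes overlapped between the groups, and Gins1 had 0.00 ± 0.06, Gins2 -0.13 ± 0.10 and Gins4 0.11 ± 0.07. Gins4 read 9.17 and 9.37 on the ethanol arrays, against 9.09, 9.25, 9.17 and 9.14 on saline arrays 1, 3, 5 and 6, so that ethanol array 4 was the highest of the 6. Gins2 was 6.77 and 6.40 on the ethanol arrays, with the saline arrays at 6.58 to 6.84. Mcm10, a scaffold that helps start the helicase, had -0.08 ± 0.06.

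The sliding clamp Pcna encircles DNA and holds polymerases on it. It read 11.28 and 11.04 on the ethanol arrays, against 11.37, 11.45, 11.33 and 11.29 on saline arrays 1, 3, 5 and 6. Ethanol array 2 lay within 0.01 of the lowest saline array, and the difference between the means came mostly from ethanol array 4. The means were 11.16 ± 0.17 with ethanol (SD, n = 2) and 11.36 ± 0.07 with saline (SD, n = 4), and the change was -0.20 ± 0.08 (limma adjusted p = 0.327). It was -0.07 without ethanol array 4 and -0.32 without ethanol array 2. Its unadjusted p was 0.0655 with centred arrays and 0.0943 with no variance prior. The further probeset of Pcna gave 11.26 and 11.01 on the ethanol arrays and 11.26 to 11.42 on the saline arrays, a change of -0.19.

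Of the clamp loader genes, which open the clamp and close it on DNA, Rfc1 to Rfc4 had changes below 0, of -0.07 ± 0.07 for Rfc1, -0.09 ± 0.06 for Rfc2, -0.15 ± 0.11 for Rfc3 and -0.13 ± 0.10 for Rfc4. Rfc2 read 8.20 on both ethanol arrays and 8.25 to 8.34 on the saline arrays, without overlap. Rfc3 and Rfc4 varied most within saline, from 7.71 on array 1 to 8.17 on array 3 for Rfc3 and from 9.27 to 9.66 on those arrays for Rfc4. Rfc5 had a change above 0, at 9.14 and 9.03 on the ethanol arrays against 8.86, 8.88, 9.03 and 9.02 on saline arrays 1, 3, 5 and 6. Its change was 0.14 ± 0.07 (limma adjusted p = 0.454), and ethanol array 4 and saline array 5 gave the same value to 2 decimals.

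The 6 polymerase and primase genes all had changes below 0 (against 58.6% of all tested genes) that were smaller than or close to their standard errors. Pole, the catalytic subunit of the leading strand polymerase, read 7.38 and 7.37 on the ethanol arrays, against 7.49, 7.37, 7.49 and 7.44 on saline arrays 1, 3, 5 and 6, a change of -0.07 ± 0.06. Pold1, the catalytic subunit of the lagging strand polymerase, had -0.03 ± 0.06. Pola1 and Pola2, subunits of the polymerase that starts each strand, had -0.06 ± 0.06 and -0.01 ± 0.10, and the primase genes Prim1 and Prim2, whose products lay the RNA primer, had -0.07 ± 0.08 and -0.06 ± 0.07. Prim2 read 8.64 and 8.61 on the ethanol arrays and 8.57 to 8.76 on the saline arrays. All 6 overlapped between the groups. The changes of Pola1 and Pola2 turned above 0 under some alternatives.

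Okazaki fragments on the lagging strand are trimmed by Fen1, a flap nuclease, and joined by Lig1, a DNA ligase. Fen1, near background, read 5.90 and 5.86 on the ethanol arrays, against 6.20, 5.89, 6.01 and 5.96 on saline arrays 1, 3, 5 and 6, a change of -0.14 ± 0.08. Lig1 read 7.38 and 7.49 on the ethanol arrays, against 7.55, 7.35, 7.57 and 7.61 on saline arrays 1, 3, 5 and 6, a change of -0.08 ± 0.08. For both genes saline array 3 was the one saline array not above both ethanol arrays. Without it both had an unadjusted p under 0.05 (limma adjusted p = 0.323 for Fen1 and 0.314 for Lig1). In that fit 10.5% of all tested genes had such a p with a change below 0. Without saline array 1 the change was -0.07 for Fen1 (limma unadjusted p = 0.308) and -0.07 for Lig1 (0.405).

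Deoxynucleotides come from ribonucleotide reductase, whose subunits are the products of Rrm1 and Rrm2, and thymidylate from Tyms. Rrm2, the subunit whose amount limits the enzyme in S phase, read 8.55 and 8.50 on the ethanol arrays, against 8.63, 8.68, 8.74 and 8.82 on saline arrays 1, 3, 5 and 6. The groups did not overlap, with means of 8.52 ± 0.04 with ethanol (SD, n = 2) and 8.72 ± 0.08 with saline (SD, n = 4). The change of -0.19 ± 0.07 had a limma adjusted p of 0.271, the smallest after Ccnd1 among the 40 genes. Rrm1, the large subunit, read 9.71 and 9.50 on the ethanol arrays, against 9.67, 9.54, 9.71 and 9.59 on saline arrays 1, 3, 5 and 6, and its change was -0.02 ± 0.07. Its ethanol arrays lay just outside opposite ends of the saline range. Tyms had -0.13 ± 0.09, with 7.89 and 7.68 on the ethanol arrays and 7.83 to 8.11 on the saline arrays. Its change was -0.06 without saline array 6, the highest, -0.020 without ethanol array 4 and -0.24 without ethanol array 2.

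**Figure D5:**
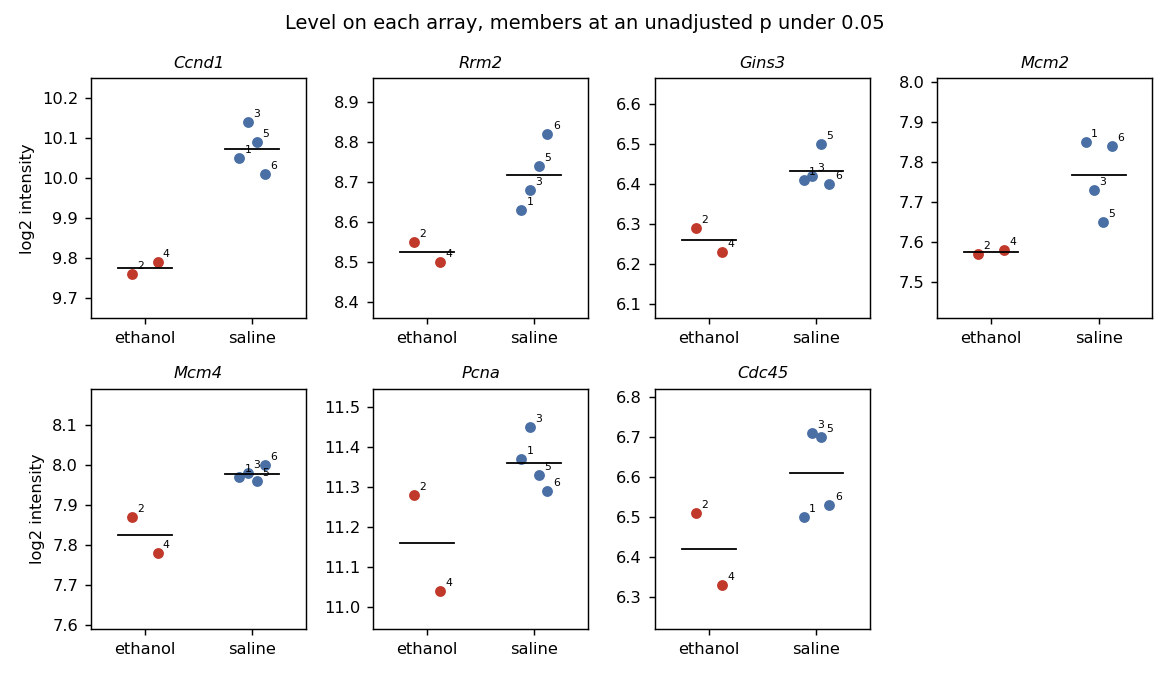
Log2 intensity (vertical axis, 0.6 units in each panel) of the 7 genes at an unadjusted p under 0.05, ethanol arrays left and saline arrays right, each point with its array number and lines for group means. The groups overlap for Cdc45, and the ethanol arrays lie 0.03 apart for Ccnd1, 0.01 apart for Mcm2 and 0.24 apart for Pcna.

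Other genes of the pathway, in 4 further lists, held none that passed the limma test among all genes. Of 32 tested genes of the replication machinery, 5 (15.6%) were below 0 and 1 above at an unadjusted p under 0.05, with a median change of -0.04. Among all tested genes, 8.44% had such a p below 0 and 3.85% above, and the median was -0.02. Pole2, the second subunit of the leading strand polymerase, read 6.99 and 7.00 on the ethanol arrays, against 7.19, 7.24, 7.25 and 7.28 on saline arrays 1, 3, 5 and 6, without overlap. Its change was -0.25 ± 0.06 (limma adjusted p = 0.127). Wdhd1, which ties the helicase to the first polymerase, had -0.17 ± 0.06, and the fork protection gene Timeless, near background, -0.19 ± 0.08. Mcm9, an MCM relative with a part in recombination repair, had 0.26 ± 0.07, also near background.

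In the list of RB-E2F and CDK control, 2 of 21 tested genes (9.5%) were below 0 and 1 above at that p, with a median of -0.04. All tested genes had 8.44% below 0 and 3.85% above at that p. Of the list 57.1% had a change below 0, against 58.6% of all tested genes. Those at that p were E2f8, a repressor of E2F targets (-0.23 ± 0.07), E2f4, a factor that acts mainly with the retinoblastoma relatives (-0.20 ± 0.08), and Tfdp2, a dimer partner of E2F factors (0.18 ± 0.08). Cdc25a, the phosphatase that activates Cdk2, had -0.14 ± 0.07. Of 15 other S-phase genes, 2 (13.3%) were below 0 at that p and 0 above, the histone chaperone gene Nasp (-0.22 ± 0.09) and Slbp, whose product binds the end of histone transcripts (-0.15 ± 0.06). Their median was -0.07. Next by p were Dctd, a deoxycytidylate deaminase, at -0.13 ± 0.06 and the chromatin assembly gene Chaf1b at -0.14 ± 0.07. Mitosis genes, 21 tested, had 3 (14.3%) below 0 and 0 above at that p and a median of -0.07. These were the mitotic kinase genes Aurka (-0.25 ± 0.08), Bub1 (-0.19 ± 0.06) and Cdk1 (-0.21 ± 0.08), followed by the centromere histone gene Cenpa (-0.12 ± 0.07).

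Markers of cell types in the sample were read beside these values, as mean levels over the measured genes of each list, and their part in the changes was not tested. Cerebellar granule precursor markers (11 of 11 measured) were 8.97 and 8.92 on the ethanol arrays and 8.94 to 9.03 on the saline arrays. Of them 1 was below 0 and 2 above at an unadjusted p under 0.05, where all tested genes had 8.44% below 0 and 3.85% above. Neural progenitor markers (9 of 9) were 9.01 and 8.90 on the ethanol arrays and 8.94 to 9.04 on the saline arrays, with 0 at that p in limma. Oligodendrocyte precursor markers (7 of 8) were 9.45 and 9.48 on the ethanol arrays and 9.48 to 9.56 on the saline arrays, with 2 below 0 at that p, the lineage factors Olig2 (-0.32 ± 0.07, limma adjusted p = 0.0827) and Olig1 (-0.16 ± 0.07). Of the 7 tested, 3 were below 0 and 4 above, with a median change of 0.01, and Pdgfra, the growth factor receptor that marks these cells, had 0.01 ± 0.08. In none of these 3 lists was a measured gene near background.

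Among other cell types, microglia markers (7 of 8, with 1 near background) were 7.37 and 7.26 on the ethanol arrays and 7.34 to 7.41 on the saline arrays. Endothelial markers (6 of 6) were 8.34 and 8.44 on the ethanol arrays and 8.34 to 8.47 on the saline arrays, and choroid plexus markers (6 of 6) 8.56 and 8.60 on the ethanol arrays and 8.55 to 8.67 on the saline arrays. Myelin markers (5 of 6) were 8.47 and 8.71 on the ethanol arrays and 8.58 to 8.68 on the saline arrays. Erythroid markers (2 of 6) were 7.84 and 7.42 on the ethanol arrays and 7.54 to 8.10 on the saline arrays. Pituitary markers (8 of 9, with 5 near background) moved with the groups, at 6.06 and 5.65 on the ethanol arrays and 6.24 to 6.42 on the saline arrays. Of their 5 tested genes 4 were below 0 at an unadjusted p under 0.05, where all tested genes had 8.44% below 0. Growth hormone, Gh, read 7.65 and 5.72 on the ethanol arrays, against 8.39, 7.70, 8.20 and 8.52 on saline arrays 1, 3, 5 and 6, a change of -1.52 ± 0.38 (limma adjusted p = 0.162). Cga, the subunit shared by the glycoprotein hormones, read 7.19 and 6.06 on the ethanol arrays, against 7.89, 7.66, 7.84 and 7.93 on saline arrays 1, 3, 5 and 6, a change of -1.20 ± 0.21 (limma adjusted p = 0.063). Both genes were lower on each ethanol array than on any saline array, and the other 3 tested pituitary genes had changes of -0.17 to -0.02. At that p, 1 of 6 tested microglia markers and 1 of 7 neuronal markers were below 0, against 0 of the tested astrocyte, endothelial, choroid plexus, myelin and erythroid markers in limma.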

How the data were processed

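RNA pooled from 3 pups per array (200 ng, labelled with biotin) was measured on Affymetrix arrays of the whole-transcript type, per the labels' protocols. The values the authors deposited, 1 for each probeset on each array, ran from 4.10 to 14.9, and were taken as log2 from that range because the log base is not stated. The submitters' processing notes name Partek 6.6. How background was corrected and arrays were normalized is not given in the sources used here.

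Of 35556 probesets, 21789 had 1 gene symbol, 1621 had several and 12146 were unnamed here, and symbols of 21698 were updated through current gene records. A gene took its probeset with the highest mean. Genes were tested in R 4.3.3 with lmFit and eBayes of limma 3.58.1, two-sided, treatment as the only term, with 4 residual and 8.10 prior degrees of freedom, p-values adjusted by Benjamini-Hochberg over all 14953 tested genes (4985 with means up to 5.55 left out), threshold 0.05. The fit was tested on simulated data. Replicates are pools of separate animals, and the number of arrays limits the precision. Groups came from the sample titles.

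The genes and the 15 comparison lists were chosen with earlier results of these data known, so no list test was run. Named with values per array were genes at an unadjusted p under 0.05 and, in each role group, the gene of smallest p and the gene of highest mean. From each pathway list up to 4 genes of smallest p were named. The dim genes, genes without group overlap, Gins2, Rfc3, Rfc4, Tyms, E2f3, Ccnd3 and Cdk6 were added after their values were seen. Promoters are RefSeq's, GRCm38.p6. Alternatives were no filter or a 50% filter on dim genes, the mean of a gene's probesets, array centring, quantile normalization, array weights, a trended robust prior, no prior, and leaving out each array. Cdkn1a lay on a probeset of several genes and was not analysed here.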

Additional observations from a re-analysis of the deposited data

Results flagged for a closer look

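The 4 saline values of each of the 42 genes were screened for a value far from the other 3, a test that flags about 1 in 20 groups by chance, and 2 genes were found. Tyms read 8.11 on saline array 6, with the other saline arrays at 7.83 to 7.86. Ccne1 read 8.92 on saline array 6, with the others at 9.11 to 9.13. The gaps were 0.906 and 0.875 of the whole saline range, above the limit of Dixon's test for 4 values.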

How the results depend on the processing

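No paired analysis was possible because the ethanol and saline arrays share no replicate number and the labels do not say which pools share litters, so every fit leaves the littermate matching out. The count of all genes that passed was 12, and it became 52 with the dimmest 50% left out, 26 with centred arrays, 23 with quantile normalization, 56 with array weights, 48 with the trended robust prior, 0 with no prior (1535 at an unadjusted p under 0.05) and 4 to 16 without 1 array. The cause was not tested. Of the replication genes 1, Ccnd1, passed with the dimmest 50% left out and with the trended robust prior. With any 1 saline array left out, 0 passed. In those fits 6 to 8 were below 0 at an unadjusted p under 0.05 (against 5.7% to 10.5% of all tested genes), and 0 were above. These counts leave out the 2 fits that keep 1 ethanol array. With centred arrays 4 were below 0 (against 5.05% of all tested genes) and 1 above at that p, where the main fit had 3.85% of all tested genes above. Both ethanol arrays then lay above saline for 2, against 1 in the main fit, where 7.68% of all tested genes did. Without 1 array, genes with the ethanol arrays below all saline arrays numbered 10 to 19 (against 15.9% to 29.2% of all tested genes). Above them were 1 to 5, where all tested genes had 7.68% with all 6 arrays, and fewer arrays make separation easier. The 10 were without saline array 5 (15.9% of all tested genes) and the 19 without ethanol array 2 (28.1%). Those with a change below 0 numbered 29 to 33, and the median change was -0.08 to -0.06. Of 548 gene and setting pairs, 526 kept direction and side of the threshold, 2 passed and 20 turned, in 10 genes. With centring the turned changes were 0.005 for Mcm6, 0.019 for Pola2 and 0.002 for Rrm1, with quantile normalization 0.002 for Pola2, and with array weights -0.014 for Gins1. Without 1 array the changes ran from -0.13 to 0.040 for Mcm3, -0.05 to 0.005 for Mcm6, -0.007 to 0.026 for Mcm7, -0.017 to 0.07 for Cdt1, -0.048 to 0.05 for Gins1, -0.32 to 0.05 for Gins2, -0.25 to 0.001 for Rfc4, -0.15 to 0.028 for Pola1, -0.09 to 0.05 for Pola2 and -0.13 to 0.08 for Rrm1.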
